A study of Mus musculus with 6 samples.

Results

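Muscle fibers exchange lactate with the blood and with each other through proton-linked monocarboxylate transporters of the SLC16 family. Slc16a1 encodes MCT1, a transporter with high affinity for lactate that is typical of oxidative fibers, and Slc16a3 encodes MCT4, a transporter of low affinity that is typical of fast glycolytic fibers and serves lactate export. These transporters reach the plasma membrane only with a chaperone, a single-pass glycoprotein of the immunoglobulin superfamily. Basigin (Bsg) is the usual partner of MCT1 and MCT4, and embigin (Emb) can take its place, mainly with MCT1 and MCT2. The soleus, a postural muscle rich in slow and fast oxidative fibers, takes up as well as releases lactate.

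The 4 genes Slc16a1, Slc16a3, Bsg and Emb were followed in the soleus of Mustn1 KO-first mice. They were found by gene symbol among the 16247 rows of the deposited normalized table and joined by Ensembl identifier to the raw counts of 51912 genes; all 4 were present once, and all 4 were among the 14696 genes with enough reads to be tested. They were chosen with the difference between the genotypes already known, so their HET and WT values are given as a description, without a test.

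RNA-seq was done on 1 soleus library from each of 6 C57BL6/N mice aged 8 weeks: 3 heterozygotes (HET), and 3 wild-type (WT) littermates. The HET mice carried, in every tissue, 1 KO-first (tm1a) allele of Mustn1, in which a lacZ and neomycin resistance gene trap is spliced to exon 1, and 1 intact allele; the WT mice carried no trap. Each mouse is a replicate (n = 3 per genotype), and the question is whether the expression of the lactate transport system differed when 1 copy of Mustn1 was trapped.

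The libraries held between 26790075 and 50368796 reads assigned to genes. Mustn1, which encodes a small muscle protein, was at 12.6, 16.8 and 13.1 CPM (counts scaled to a common library size) in HET mice 1, 2 and 3 and at 23.1, 28.98 and 30.5 CPM in WT mice 1, 2 and 3. This came to a log2 fold change of −0.96 ± 0.15 (SE, edgeR quasi-likelihood test, Benjamini-Hochberg adjusted p = 0.0452), a call lost without HET mouse 1, HET mouse 3, WT mouse 1 or WT mouse 2. The slow myosin gene Myh7 stood between 13642 and 14766 CPM. The labels give the mice as male, yet every library held Xist reads, from 3858 to 9154, and the 4 Y-linked genes Ddx3y, Kdm5d, Uty and Eif2s3y together had between 0 and 12. Replicate libraries differed by far more than sampling noise; within the HET group, mouse 2 stood farthest from the others, with a chi-square per gene of 42.1 and 46.8 against mice 1 and 3, which differed from each other by 18.1.

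The promoters of the 2 transporters are shown first, because both carry the letters ACGTG, the core of the sequence bound by the hypoxia-inducible factor HIF-1, a known regulator of MCT4. RefSeq promoter windows (build GRCm38.p6) ran from 250 bases before to 50 bases after the start of a gene, and were searched for ACGTG on both strands, with overlapping matches counted as 1 site. Of 32851 windows, 19.6% held a site and 2.69% held at least 2. Entries were found for 3 of the 4 genes, Slc16a1, Slc16a3 and Emb. The windows of Slc16a1 and Slc16a3 held 2 sites each and the Emb window held 0. The GC content of the window was 73.7% for Slc16a1, 73.3% for Slc16a3 and 57.7% for Emb, and the shares over all windows take no account of GC. In the stretches below, read 5′ to 3′ on the plus strand, capitals mark the sites.
Slc16a3, chr11:120949034-120949063: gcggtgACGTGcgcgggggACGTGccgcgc
Slc16a1, chr3:104638452-104638481: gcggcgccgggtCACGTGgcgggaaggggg
The Slc16a3 sites lie 27 and 14 bases before the RefSeq start, and their first bases are 13 apart. This stretch is within the first intron of the Slc16a3 transcript that starts farthest upstream, and its last 11 bases are in the first exon of another transcript. The Slc16a1 stretch, 186 bases ahead of the first annotated exon, holds a palindrome that reads ACGTG on both strands and was counted as 1 site; the other Slc16a1 site is in the first exon. A match is a description of the letters, and binding was not measured here.

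Per length, basigin RNA was by far the most abundant of the 4, followed by MCT1, MCT4 and embigin. Levels between genes were compared in TPM, the count per base of exon scaled to the same total in every library, from the raw counts and deposited exon lengths. Bsg stood between 439 and 572 TPM over the 6 mice, Slc16a1 between 92.9 and 112 TPM, Slc16a3 between 15.9 and 29.4 TPM and Emb between 0.671 and 4.77 TPM. The order was the same in 6 of 6 mice, and no 2 neighbours in it overlapped. The mean level of Bsg was 4.67 times that of Slc16a1 (3.93 to 5.95 within single mice), Slc16a1 was 4.48 times Slc16a3 (3.39 to 7.01), and Slc16a3 was 8.90 times Emb (4.37 to 39.8). Among all genes tested, 97.5% had a lower mean CPM than Bsg, 94.8% lower than Slc16a1, 78.9% lower than Slc16a3 and 23.0% lower than Emb. The deposited Slc16a3 length of 5318 bases joins the exons of all its transcripts, including alternative first exons, so its TPM would be higher if only a shorter transcript were made.

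**Figure D1:**
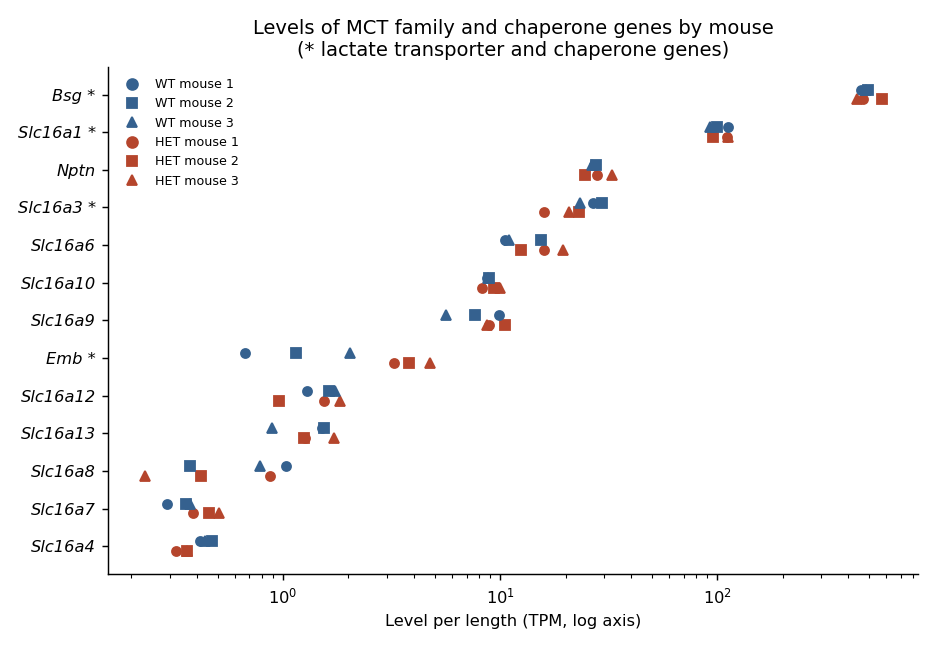
Level per length (TPM, log axis) of the 4 genes (asterisks), of the basigin relative Nptn and of further SLC16 genes tested, with 1 point per mouse (WT blue, HET red). Bsg lies above all others at 439 to 572 TPM, Slc16a1 follows at 92.9 to 112 TPM, and Emb shows the widest separation of the genotypes, at 0.671 to 2.03 TPM in WT and 3.23 to 4.77 TPM in HET mice.

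Slc16a1 (ENSMUSG00000032902, GRCm38 chr3:104638668-104658462, plus strand) encodes MCT1, the main lactate carrier of this muscle by RNA level. Its level was 168, 146 and 162 CPM in HET mice 1, 2 and 3 and 187, 163 and 148 CPM in WT mice 1, 2 and 3. The genotypes overlapped, with WT mice 2 and 3 inside the range of the HET values and WT mouse 1 above it. The means were 159 ± 11.2 CPM (SD, n = 3) in HET and 166 ± 19.8 CPM (SD, n = 3) in WT mice, and the fitted log2 fold change was −0.06 ± 0.10 (SE). The sign of this small difference was not stable, since leaving out single mice gave values from −0.14 to 0.03. Of all genes tested, 38.1% had a lower log2 fold change.

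Slc16a3 (ENSMUSG00000025161, chr11:120948480-120960868, plus strand) encodes MCT4, the export carrier of glycolytic fibers. It was counted with 1078, 1129 and 1587 reads in HET mice and 1598, 1629 and 2206 reads in WT mice 1, 2 and 3. Normalized, these were 28.8, 42.1 and 36.2 CPM in HET mice and 53.4, 57.8 and 44.7 CPM in WT mice. All HET mice were below all WT mice, but HET mouse 2 and WT mouse 3 were only 0.09 apart on the log2 scale. The means were 35.7 ± 6.65 CPM (SD, n = 3) in HET and 52.0 ± 6.66 CPM (SD, n = 3) in WT mice, and the fitted log2 fold change was −0.54 ± 0.14 (SE). It ranged from −0.66 without HET mouse 2 to −0.41 without HET mouse 1, and 1.95% of the genes tested had a lower one.

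Bsg (ENSMUSG00000023175, chr10:79704491-79711969, plus strand) encodes basigin, the chaperone of both carriers. Its level was 290, 357 and 260 CPM in HET mice 1, 2 and 3 and 313, 330 and 315 CPM in WT mice 1, 2 and 3. The WT mice were close together, and the HET mice were spread on both sides of them. The means were 302 ± 49.7 CPM (SD, n = 3) and 319 ± 9.41 CPM (SD, n = 3), a log2 fold change of −0.08 ± 0.11 (SE). Leaving out single mice moved it between −0.20 and 0.02, and 33.3% of the genes tested had a lower value.

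Emb (ENSMUSG00000021728, chr13:117220625-117274098, plus strand) encodes embigin, the alternative chaperone. It had few reads, 93, 79 and 154 in HET mice and 17, 27 and 81 in WT mice 1, 2 and 3; for the lowest count, of 17, the 95% Poisson interval runs from 9.90 to 27.2 reads and covers counting error only. Normalized, these were 2.48, 2.94 and 3.51 CPM in HET mice and 0.569, 0.958 and 1.64 CPM in WT mice. All HET mice were above all WT mice, with a gap of 0.60 on the log2 scale between HET mouse 1 and WT mouse 3. The means were 2.98 ± 0.514 CPM (SD, n = 3) and 1.06 ± 0.543 CPM (SD, n = 3), a ratio of 2.82 and a log2 fold change of 1.45 ± 0.34 (SE). The coefficient of variation of the WT mice was 51.4%, against a median of 10.6% over all genes tested. The difference was 1.97 without WT mouse 3 and 1.16 without WT mouse 1, and 99.3% of the genes tested had a lower log2 fold change.

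**Figure D2:**
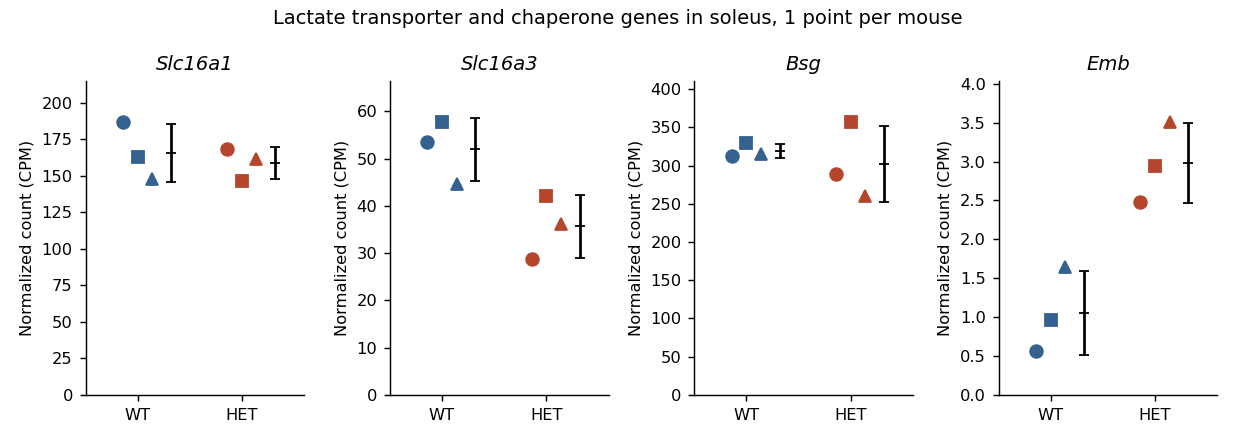
Normalized counts (CPM, linear axes from 0) of the 4 genes, with 1 point per mouse and the mean ± SD (n = 3) beside the points. Slc16a1 and Bsg overlap between genotypes, Slc16a3 is lower in HET mice (28.8 to 42.1 CPM) than in WT mice (44.7 to 57.8 CPM), and Emb is higher (2.48 to 3.51 against 0.569 to 1.64 CPM).

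The genotypes did not overlap for 2 of the 4 genes, Slc16a3 and Emb, where 13.6% of all genes tested had no overlap in either direction (7.55% higher and 6.02% lower in HET). By the edgeR quasi-likelihood test with Benjamini-Hochberg adjustment over all genes, 0 of the 4 were called at an adjusted p below 0.05, and 0.15% of all genes were (21 or 0.143% higher and 1 or 0.0068% lower in HET). At an unadjusted p below 0.05, 2 of the 4 were called, and 7.76% of all genes. DESeq2 called Emb higher and Slc16a3 lower, with 1.48% of all genes called higher and 0.0544% lower, and limma-voom called 0 of the 4 and 0.0204% of all genes. Without the filter on low counts edgeR made the same 2 calls, with 1.33% of all genes called higher and 0.0619% lower. When WT mouse 3 was left out, edgeR called Emb higher, with 0.519% of all genes called higher and 0.0404% lower. Since the genes were chosen on this contrast, nothing is read from these counts.

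Within a library, the ratio of 2 genes is free of the scaling between libraries. Slc16a3 made up 12.5%, 19.3% and 15.7% of the summed level per length of MCT1 and MCT4 in HET mice 1, 2 and 3, and 19.2%, 22.8% and 20.1% in WT mice. The means were 15.8% ± 3.42 and 20.7% ± 1.86 (SD, n = 3), and the genotypes just overlapped, HET mouse 2 standing above WT mouse 1. The log2 ratio of Slc16a3 to Slc16a1 was lower in HET mice by a difference of −0.49. For the chaperones, there were 145, 151 and 92.1 Bsg transcripts for each Emb transcript in HET mice 1, 2 and 3 and 683, 428 and 239 in WT mice. These ratios did not overlap, and their log2 means were 6.98 ± 0.39 and 8.69 ± 0.76 (SD, n = 3). Embigin was nonetheless a small part of the chaperone RNA in all mice, from 0.659% to 1.07% in HET and from 0.146% to 0.417% in WT mice.

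Soleus is a mixture of fibers and other cells, and in bulk RNA fewer cells of a type cannot be told apart from less RNA per cell. Markers of fast fibers were given beside Slc16a3 for this reason. Of 13 fast fiber genes 0 passed the edgeR test, with 1 at an unadjusted p below 0.05 and 0 called by DESeq2 or limma-voom; 1 had a log2 fold change above 0, and the median was −0.18, against −0.02 over all genes tested. For 4 of the 13, all HET mice were below all WT mice, where this held for 6.02% of all genes tested. None of the 13 was at 0 reads. Their summed level was 49582, 59339 and 51393 CPM in HET mice and 58674, 56279 and 57951 CPM in WT mice 1, 2 and 3, so the genotypes overlapped. Slc16a3 per 1000 CPM of these genes was 0.581, 0.709 and 0.704 in HET mice and 0.911, 1.03 and 0.771 in WT mice, without overlap, a log2 difference of −0.44.

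The myosin of the fastest fibers, Myh4, named after its values were seen, had the lowest log2 fold change of the 13 genes (−0.91) and varied widely. It was at 44.7, 2042 and 167 CPM in HET mice 1, 2 and 3 and at 1470, 1774 and 976 CPM in WT mice 1, 2 and 3. Within each genotype the mice were in the same order for Myh4 as for Slc16a3. HET mouse 2 had more Myh4 than any WT mouse and less Slc16a3 than any WT mouse, by only 0.09 on the log2 scale from WT mouse 3. At the opposite end of the 13 genes was Myh2, a far more abundant fast myosin gene, with a log2 fold change of 0.14. HET mice 1, 2 and 3 had 13075, 16003 and 14114 CPM of Myh2. WT mice 1, 2 and 3 had 12653, 13265 and 13235 CPM, so the genotypes overlapped. The part of fast fibers in the Slc16a3 values was not tested.

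Fibroblast and macrophage markers stood higher in HET mice along with Emb. Of 12 fibroblast genes, 12 had a log2 fold change above 0 and 1, Pi16, passed the edgeR test (45.2 ± 4.62 against 21.6 ± 4.997 CPM, SD, n = 3, log2 fold change 1.06 ± 0.15 SE, adjusted p = 0.0452); the median was 0.69. DESeq2 called 6 of the 12 and limma-voom 0, and 11 were at an unadjusted p below 0.05. Their summed level was 2319, 2697 and 3079 CPM in HET mice and 1133, 1574 and 1768 CPM in WT mice 1, 2 and 3, which is the order of Emb over all 6 mice. Of 14 macrophage genes, 14 were above 0 and 6 passed, among them Adgre1, which encodes the surface marker F4/80 (3.88 ± 0.853 against 1.27 ± 0.260 CPM, SD, n = 3, log2 fold change 1.61 ± 0.25 SE, edgeR adjusted p = 0.0452). DESeq2 called 8 of the 14 and limma-voom 2, and 11 were at an unadjusted p below 0.05. Leaving out HET mouse 1, HET mouse 3, WT mouse 1 or WT mouse 2 brought the edgeR calls of both lists to 0, and without WT mouse 3 they were 3 fibroblast and 8 macrophage genes. The macrophage sum was 154, 124 and 161 CPM in HET mice and 73.9, 84.9 and 98.2 CPM in WT mice 1, 2 and 3. This is not the order of Emb among the HET mice, since HET mouse 2 had the lowest macrophage sum and HET mouse 1 the lowest Emb. No gene of either list was at 0 reads.

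Set against these markers, the Emb difference was smaller. This follows from the division itself, since both marker sums were higher in HET mice, and it does not show where Emb RNA came from. Per 1000 CPM of fibroblast genes, Emb was 1.07, 1.09 and 1.14 in HET mice and 0.502, 0.608 and 0.928 in WT mice 1, 2 and 3. The genotypes did not overlap, and the log2 difference was 0.74, where Emb CPM alone gave 1.61 on the same scale of plain log2 means. Per 1000 CPM of macrophage genes, Emb was 16.1, 23.8 and 21.8 in HET and 7.69, 11.3 and 16.7 in WT mice, with an overlap and a log2 difference of 0.84. The part of either cell type in the Emb values was not tested.

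**Figure D3:**
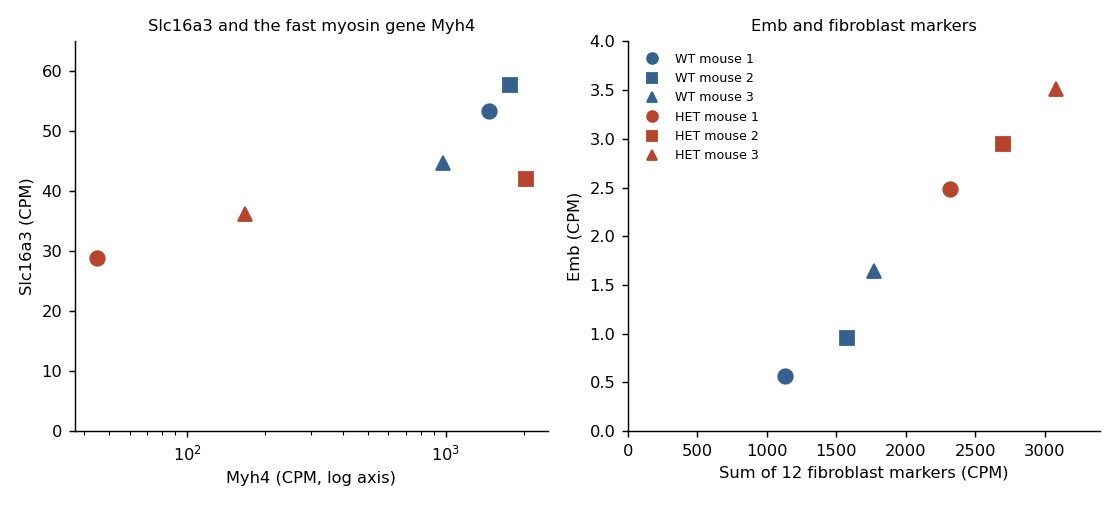
Left, Slc16a3 (CPM) against the fast myosin gene Myh4 (CPM, log axis); right, Emb (CPM) against the sum of 12 fibroblast markers (CPM), with 1 point per mouse. HET mouse 2 has 2042 CPM of Myh4 and 42.1 CPM of Slc16a3, below the WT mice at 44.7 to 57.8 CPM, and the 6 mice rise in the same order on both axes of the right panel.

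Other cell types that a soleus sample holds were checked in the same way, and 0 of their genes passed the edgeR test or limma-voom. Endothelial markers had a median log2 fold change of −0.06 over 12 genes, slow fiber markers −0.08 over 12, nerve sheath markers 0.05 over 10 and myoblast markers −0.04 over 9. Red cell markers, of interest because erythrocytes carry MCT1 and basigin, had a median of −0.24 over 5 tested genes, all below 0; it was −0.59 without HET mouse 2 and −0.03 without WT mouse 2. The median was 0.95 over 8 adipocyte genes and 1.94 over 6 mast cell genes, whose summed levels were 301 to 486 and 6.86 to 9.07 CPM in HET mice and 289 to 327 and 3.16 to 4.97 CPM in WT mice. Single mice moved the adipocyte median from 0.57 without WT mouse 2 to 2.30 without WT mouse 3, and it was 0.65 without HET mouse 2 or without WT mouse 1. The mast cell median was 0.59 when 10 reads were required in every library. DESeq2 called 4 mast cell genes higher and 0 genes of the other 6 lists. At an unadjusted p below 0.05, 4 mast cell genes and 1 nerve sheath gene were higher, and 1 slow fiber and 1 myoblast gene were lower.

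The wider SLC16 family and the sodium-coupled carriers Slc5a8 and Slc5a12 showed no call. Of 14 genes listed, 9 had enough reads, 0 passed by edgeR, DESeq2 or limma-voom or at an unadjusted p below 0.05, 4 were above 0 and the median log2 fold change was −0.00. The lowest was Slc16a8 (MCT3, the carrier of the retinal pigment epithelium) at −0.66 ± 0.55 (SE), from at most 0.702 CPM. The highest was Slc16a7 (MCT2, the carrier of highest pyruvate affinity and a usual client of embigin) at 0.27 ± 0.23, with 1.55, 1.86 and 1.96 CPM in HET mice and 1.30, 1.56 and 1.58 CPM in WT mice. MCT2 RNA was thus scarce, at a mean of 0.395 TPM, in all mice. The ketone body carrier Slc16a6 (0.25 ± 0.18), the aromatic amino acid carrier Slc16a10 (−0.07 ± 0.10) and Slc16a13 (−0.00 ± 0.31) all overlapped between genotypes. Of the 9 genes tested, 1 did not overlap, Slc16a4, named after its values were seen. Of all genes tested, 13.6% did not overlap, with 6.02% lower in HET. Slc16a4 was at 0.427, 0.484 and 0.456 CPM in HET mice and 0.602, 0.674 and 0.608 CPM in WT mice 1, 2 and 3. The fit gave −0.46 ± 0.33 on the log2 scale (SE, edgeR adjusted p = 0.855), from 13 to 30 reads a library.

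Among 8 relatives and binding partners of basigin, 0 passed the edgeR, DESeq2 or limma-voom test, 1 was higher at an unadjusted p below 0.05, 6 were above 0 and the median was 0.18. Nptn, the basigin relative neuroplastin that chaperones MCT2 and calcium pumps, was at 59.1, 52.0 and 66.1 CPM in HET mice and 63.1, 63.1 and 58.7 CPM in WT mice 1, 2 and 3, a log2 fold change of −0.06 ± 0.10 (SE). At a mean of 27.8 TPM it was close to Slc16a3 in level. The ends of the list were Cav1, the coat protein of caveolae, at −0.16 ± 0.10 and Ppia, the cyclophilin A gene whose product binds basigin, at 0.54 ± 0.30. Ppia had only 0.803 to 1.96 CPM, and 17.3% of its 50-base stretches also occur in transcripts of other genes, so its value is uncertain.

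The enzymes that make and use lactate differed little. Of 18 lactate and pyruvate genes tested, 0 passed by edgeR, DESeq2 or limma-voom, 2 were lower at an unadjusted p below 0.05, 4 were above 0 and the median was −0.08. Ldha and Ldhb, which encode the muscle and heart subunits of lactate dehydrogenase, both had a log2 fold change of −0.08 ± 0.10 (SE). Ldha stood at 697 ± 50.5 CPM in HET and 738 ± 62.1 CPM in WT mice (SD, n = 3), and Ldhb at 603 ± 65.9 and 637 ± 41.4 CPM.

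Both subunits of the mitochondrial pyruvate carrier had a log2 fold change below 0, and the difference between the subunits was not tested. Mpc1 was at 7.35, 5.78 and 6.20 CPM in HET mice and 8.16, 8.80 and 9.30 CPM in WT mice 1, 2 and 3, without overlap, a log2 fold change of −0.44 ± 0.14 (SE, edgeR adjusted p = 0.365). Of all genes tested, 6.02% were likewise lower in HET without overlap. Of the 50-base stretches of Mpc1, 26.3% are shared with other genes. Mpc2 was at 192 ± 26.5 and 208 ± 5.32 CPM (SD, n = 3), a difference of −0.11 ± 0.10. Pdk4, the kinase that holds back pyruvate oxidation, ranged from 682 to 3661 CPM among HET mice alone and gave 0.31 ± 0.79. Hcar1, the lactate receptor best known from fat cells, was highest in HET mouse 2 at 3.61 CPM, with 0.284 to 1.22 CPM in the other 5 mice, and gave the highest value of the list, 1.38 ± 0.71 (adjusted p = 0.767).

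Of 18 glycolysis genes, 0 passed by edgeR, DESeq2 or limma-voom, 2 were higher and 1 lower at an unadjusted p below 0.05, 6 were above 0 and the median was −0.09. Pgk1, phosphoglycerate kinase, was lowest at −0.31 ± 0.13 (SE) and Aldoc, the brain aldolase, highest at 0.48 ± 0.41. Of the 50-base stretches of Pgk1 and Gapdh, 53.9% and 25.1% are shared with other genes, which leaves their counts uncertain; Gapdh was listed at only 3.33 to 4.89 CPM.

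Regulators of the transporters and targets of HIF-1 gave no call either. Of 15 regulator genes, 0 passed by edgeR, DESeq2 or limma-voom, 1 was higher at an unadjusted p below 0.05, 7 were above 0 and the median was −0.05. Hif1a, the oxygen-regulated subunit of HIF-1, was at 43.0 ± 4.09 and 41.4 ± 4.02 CPM (SD, n = 3). Ppargc1a, the coactivator PGC-1α that raises MCT1 in muscle, was the lowest at −0.17 ± 0.11 (SE), with 59.8 ± 4.83 and 67.1 ± 8.67 CPM, and the growth factor-responsive gene Myc was the highest at 0.58 ± 0.23. Of 14 HIF-1 target genes, 0 passed by any of the 3 tools or at an unadjusted p below 0.05, 6 were above 0 and the median was −0.03, from Ankrd37 at −0.43 ± 0.25 to Adm, the vasodilator adrenomedullin, at 0.53 ± 0.24. Slc16a3, chosen on this contrast, was lower than any of these targets at −0.54 ± 0.14 (SE), but near Ankrd37. The part of HIF-1 in the Slc16a3 values was not tested.

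MCT1 and MCT4 move a proton with each lactate, and muscle handles those protons with carbonic anhydrases and other exchangers. Of 12 such genes, 0 passed by edgeR, DESeq2 or limma-voom, 2 were lower at an unadjusted p below 0.05, 6 were above 0 and the median was −0.04. Car3, the abundant carbonic anhydrase of slow fibers, was lowest at 3574 ± 70.1 CPM in HET and 4639 ± 746 CPM in WT mice (SD, n = 3), without overlap, a log2 fold change of −0.38 ± 0.11 (SE, edgeR adjusted p = 0.312). Of all genes tested, 6.02% were likewise lower in HET without overlap. Car12 was highest of the 12 at 0.76 ± 0.64 but had at most 0.866 CPM.

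**Figure D4:**
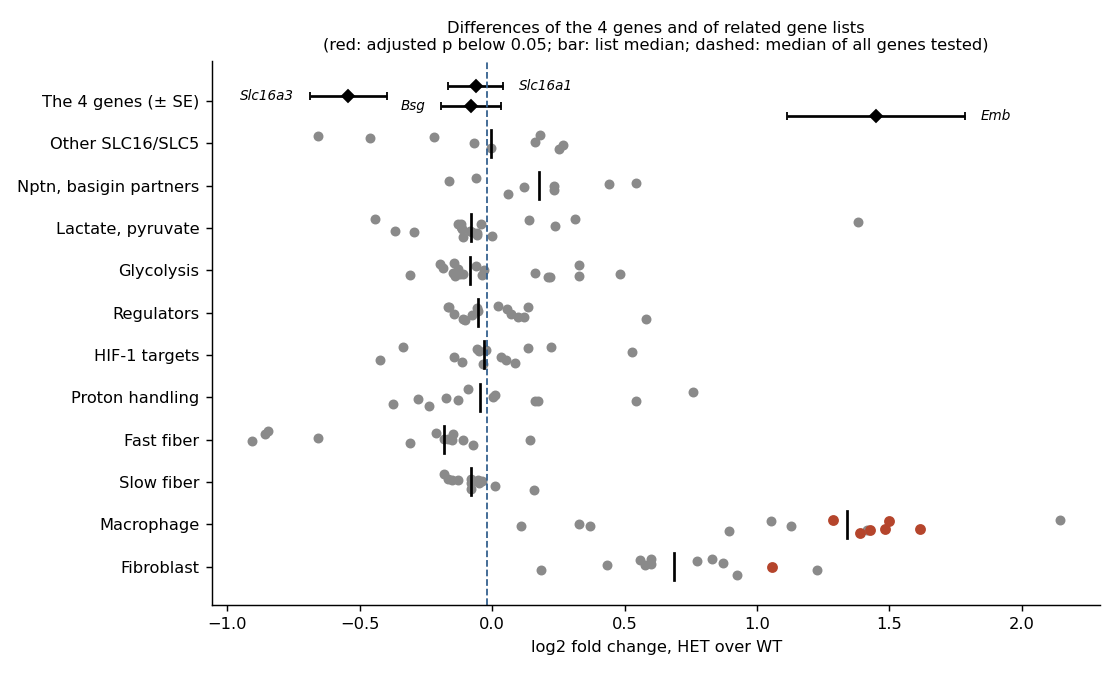
Log2 fold changes (HET over WT) of the 4 genes (diamonds ± SE) and of 11 gene lists (points), with list medians as bars and the median of all genes tested as a dashed line. Slc16a3 at −0.54 and Emb at 1.45 lie apart from Slc16a1 and Bsg, the metabolic lists are centred between −0.09 and −0.03, and the genes past the adjusted threshold (red) are 6 macrophage and 1 fibroblast gene.

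The likeness of other genes to each of the 4 was measured as the largest gap, over the 6 mice, between log2 CPM values centred on their means. Slc16a1 and Bsg had the flat profile of many genes, with 1021 and 591 of 14695 genes within 0.15 of them. Closest to Slc16a1 were Mier3 (0.0396), Taf9b (0.0402) and Kcnq5 (0.0402), and closest to Bsg were Set (0.0363), Zkscan14 (0.0380) and Rad1 (0.0420). Slc16a3 had 2 genes within that distance, A230072C01Rik (0.131) and Gm38162 (0.134), followed by Gm10605 (0.171). These had low means, of 1.87, 0.357 and 2.11 CPM, so counting error weighs on their profiles. Emb had 0 genes within 0.15. Its closest were Anxa8 (0.243), Col14a1 (0.264) and Fbln1 (0.293), with log2 fold changes of 1.36, 1.27 and 1.19. The gap was taken over HET and WT mice together, so fold changes near that of Emb follow from the selection and are no separate result.

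Of the 50-base stretches of Slc16a1, Slc16a3 and Bsg, 0% occur exactly in another gene of the annotation. For Emb 14.2% do, in 13 other genes. Only exact matches were searched, so confusion through near matches was not covered. The Emb share is over 6896 stretches of annotated transcripts, while the deposited exon length of Emb is 2253 bases. The share in the counted exons may thus be lower or higher, which leaves the Emb counts uncertain, as for Ppia. Genes that overlap Emb or Slc16a1 held at most 5 reads in any library. The count setting used strand, which separates only the Emb overlap, since the genes within Slc16a1 are on its own strand.

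**Figure D5:**
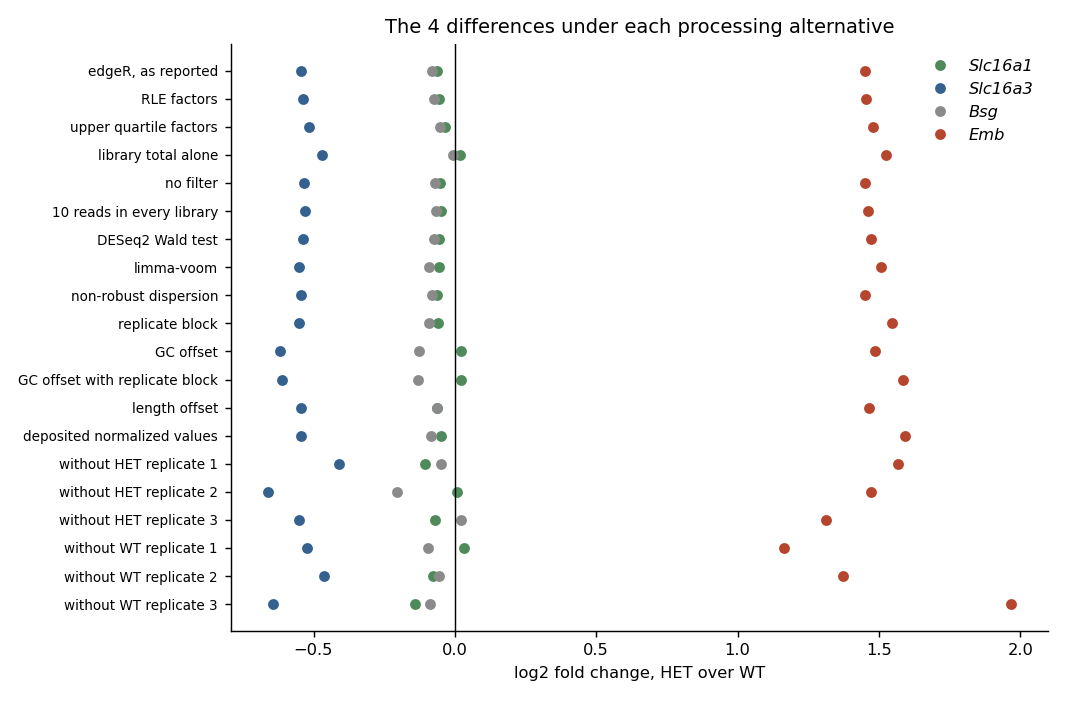
Log2 fold change (HET over WT) of each of the 4 genes under the reported fit, 13 other processing choices and 6 fits that each leave out 1 mouse. Emb stays between 1.16 and 1.97 and Slc16a3 between −0.66 and −0.41, while Slc16a1 and Bsg lie around 0.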

How the data were processed

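Per the labels and the study's methods, the authors extracted soleus RNA, made poly-A selected, stranded libraries, sequenced single reads of 50 bases, aligned them with STAR 2.7.3a to GRCm38.p6 and deposited raw counts per gene from featureCounts 2.0.3, with exon lengths, and a signal table of counts divided by DESeq2 size factors (0.773 to 1.42). Reads that map to several genes were not counted. A table of the authors' own fold changes and p-values was not used. Library totals were 26790075 to 50368796 reads.

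The raw counts were tested with edgeR 4.0.16 (filterByExpr, minimum count 10; TMM factors; robust quasi-likelihood test on genotype; Benjamini-Hochberg adjustment; threshold 0.05), after tests on simulated data. CPM used TMM factors. The biological coefficient of variation was 0.143. Other fits used DESeq2 1.42.0 and limma 3.58.1 (voom, and a pseudocount of 1 on the deposited signal). TPM, shares and ratios were made from counts and deposited lengths. Symbols came from GENCODE M21 and matched 51633 genes.

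The 4 genes and all gene lists were chosen with earlier results of these data known. Genes named besides these 4 were Mustn1, a fixed set of transport genes, the ends of each pathway list, genes past the threshold, and the 3 genes closest to each of the 4; exceptions are stated. Of the named transport genes, 1 is not reported here. No table of promoter sequence for Bsg was used here.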

Additional observations from a re-analysis of the deposited data

How the results depend on the processing

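Over 13 other processing choices, the log2 fold change of Emb stayed between 1.45 and 1.59 and that of Slc16a3 between −0.62 and −0.47; leaving out single mice gave 1.16 to 1.97 and −0.66 to −0.41. Slc16a1 (−0.06 to 0.02; single mice −0.14 to 0.03) and Bsg (−0.13 to −0.01; −0.20 to 0.02) stayed within the spread between mice. Alternatives chosen after seeing the data set Emb against fibroblast (0.74) and macrophage (0.84) markers and Slc16a3 against fast fiber genes (−0.44). Genes called higher in HET (21) became 386 without a filter, 218 with DESeq2, 3 with limma-voom, 6 with non-robust dispersion and 7 with a GC offset; genes called lower (1) became 18, 8, 0, 0 and 1. Leaving out a mouse gave 0 to 77 higher and 0 to 6 lower, with 14 and 1 without HET mouse 2. Without a filter or with DESeq2, 1 of the 4 genes was called higher (Emb) and 1 lower (Slc16a3); leaving out a mouse gave 0 to 1 higher, the 1 being Emb without WT replicate 3, and 0 lower. The cause of these changes was not tested. Replicate numbers are shared between genotypes. The deviations of same-numbered mice correlated at 0.203, −0.0058 and −0.0349, and those of differently numbered mice at −0.137 to 0.133. With 3 mice per genotype, these values cannot decide whether the numbers mark a pairing. With the replicate block 114 genes (0.776%) were called higher and 2 lower, Emb among the higher (1 of the 4). With a GC offset beside the block the counts were 94 and 2, with 0 of the 4 called. Genes called in the 7 pathway lists stayed at 0 except 1 proton handling gene without a filter. Macrophage calls ranged from 0 to 10 and fibroblast calls from 0 to 8, the latter being 0 with non-robust dispersion or a GC offset. The scaling by library total alone moved the median of all genes by 0.08. The few Emb reads in WT mice limit its precision, and stretches shared with other genes leave its counts uncertain.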
